A study of Mus musculus with 6 samples.

Results

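Transcripts of 10 genes that dispose of reactive oxygen were followed in exhausted CD8+ T cells from mouse melanomas treated with IL-10/Fc or with saline. The genes were taken by name from the series count table, and all 10 of the names were found among its 15898 listed genes. They are the peroxiredoxins Prdx1, Prdx2 and Prdx5, thioredoxin (Txn1) and its reductase (Txnrd1), the superoxide dismutases Sod1 and Sod2, the glutathione peroxidases Gpx1 and Gpx4, and Lancl1, a protein that binds glutathione. Lancl1 was included because it lay lower after IL-10/Fc, and the set was proposed with this contrast known. The differences between the treatments are therefore given for these 10 genes as a description. Calls by the tests are printed beside the share over all genes, and nothing is read from them.

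The cells were Thy1.1+ PMEL T cells, which carry a transgenic receptor for a melanocyte antigen (donor mice of B6.Cg background with the Thy1a/Cy allele and the transgene Tg(TcraTcrb)8Rest/J). In both groups, C57BL/6 mice were irradiated with 4 Gy, received naive Thy1.1+ PMEL cells, were inoculated with B16F10 melanoma and on day 10 received activated Thy1.2+ PMEL cells. In 1 group, 20 µg of IL-10/Fc, the cytokine fused to an antibody Fc part, was injected beside the tumour 4 times from day 10, and in the other group phosphate-buffered saline (PBS) was injected. On day 18, 500 Thy1.1+ CD8+ cells bearing PD-1 and TIM-3 were sorted per library. There were 4 IL-10/Fc and 2 PBS libraries. All came from 1 transgenic receptor and 1 tumour line, and the labels do not say whether each library was 1 mouse.

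Superoxide is turned into hydrogen peroxide by the superoxide dismutases. Peroxiredoxins reduce the peroxide with electrons that thioredoxin carries from NADPH through thioredoxin reductase, and glutathione peroxidases do so with glutathione. Activated T cells make reactive oxygen in their mitochondria and in signalling, and the transcription factor NRF2 drives many of these genes through the antioxidant response element.

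Libraries held 26738871 to 36941814 counts. Levels are CPM values, counts brought to a common library size, scaled by the trimmed mean of M values (TMM), which corrects for libraries whose reads are taken up by a few genes. Scaling by library size only moved the median log2 fold change of all tested genes by -0.17, so small differences below depend on this choice. All 8 markers of the T cell gate were listed, and they summed to 12720 to 14340 CPM in IL-10/Fc and to 6867 and 10300 CPM in PBS. The PBS library with the lower sum, replicate 1, had 910 CPM of the coreceptor Cd8a, against 2292 CPM in PBS replicate 2. In plain CPM, scaled by library size only, Cd3g (1827 against 3705), Cd3e, Cd8b1 and Thy1 also lay lower in PBS replicate 1. Cd3d lay higher there, at 1631 against 1475. Of the gate's other genes, Pdcd1 (PD-1) was at 700 to 1112 CPM in IL-10/Fc and at 1578 and 1286 CPM in PBS, and Havcr2 (TIM-3) at 161 to 312 CPM and at 200 and 189 CPM. The 15 macrophage markers were all listed, and summed to 238, 543, 1016 and 1034 CPM in IL-10/Fc replicates 1 to 4, against 312 and 469 CPM in PBS replicates 1 and 2. The 7 listed of 8 dendritic cell and MHC class II markers summed to 168 to 1894 CPM and to 167 and 287 CPM. None of the 7 red blood cell markers was listed. The 3 listed of 6 B cell markers summed to 7.74 to 44.1 CPM in IL-10/Fc, against 48.2 and 68.0 CPM in PBS. The 2 listed of 8 fibroblast and endothelial markers summed to 6.59 to 9.87 CPM in IL-10/Fc, against 20.4 and 16.6 CPM in PBS. The sums of the listed markers of NK cells (4 of 5), melanoma (4 of 7) and neutrophils (2 of 6) overlapped between the groups. The NK cell sum was 21.0 to 36.85 CPM in IL-10/Fc, against 60.1 and 7.025 CPM in PBS replicates 1 and 2. Its markers did not move together. By plain CPM, PBS replicate 1 stood highest for Eomes (51.5, against 5.42 in PBS replicate 2) and Klrb1c (11.1 against 0.0695). Klra8 lay lower in PBS (0.299 and 0.348) than in IL-10/Fc (0.700 to 4.47), and Klra9 overlapped.

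The sequences that set the selenium-dependent members apart are the UGA codons that are read as selenocysteine, the residue at their catalytic centre. Of the 10 genes, 3 had such an in-frame TGA before the stop codon in the GENCODE vM21 transcripts (GRCm38), and GENCODE annotates each as selenocysteine. The coding sequence around it is shown with this codon in capitals, and Txnrd1 ends at its own stop codon:
Gpx1: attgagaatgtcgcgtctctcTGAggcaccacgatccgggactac
Gpx4: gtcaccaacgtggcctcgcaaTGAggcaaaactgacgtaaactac
Txnrd1: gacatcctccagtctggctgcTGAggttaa
In Gpx1 it was codon 47 of 201 (chromosome 9, 108339451 to 108339453, plus strand) and in Gpx4 codon 73 of 197 (chromosome 10, 80054737 to 80054739, plus strand). In Txnrd1 it was codon 498 of 499 (chromosome 10, 82896037 to 82896039, plus strand), with 1 codon after it.

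Promoters were searched for the core of the antioxidant response element, TGACNNNGC, on both strands of the 300-base RefSeq windows (GRCm38.p6), which run from 250 bases before a gene's start to 50 after it. The motif stood in 12.4% of 32851 windows. All 10 genes had a window, 15 in all, and 3 of these held the motif, those of Prdx1, Txnrd1 and Sod1. The stretches are shown on the plus strand, with the motif, which lies on the minus strand in each, in capitals:
Prdx1: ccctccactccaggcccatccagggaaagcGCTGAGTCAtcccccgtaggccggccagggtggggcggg
Txnrd1: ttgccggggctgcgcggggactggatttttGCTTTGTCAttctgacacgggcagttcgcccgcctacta
Sod1: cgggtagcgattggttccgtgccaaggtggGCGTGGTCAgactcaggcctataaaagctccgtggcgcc
These are chr4:116685436-116685504, chr10:82859084-82859152 and chr16:90220676-90220744. The Prdx1 site also holds TGAGTCA, the binding sequence of AP-1, which stood in 5.20% of the windows and, among those of the 10 genes, in that of Prdx1 alone. It overlaps the response element by all of its letters, and Prdx1 has another copy of it at position -237 from the start. A match is a letter string and not a measured binding site.

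By CPM per kilobase of the principal transcript, Prdx1 was the most abundant of the 10 in IL-10/Fc cells, at 1326 ± 112 (SD, n = 4), against 992 ± 126 (SD, n = 2) in PBS cells. Sod1 followed at 654 ± 39.5 in IL-10/Fc and 816 ± 244 in PBS, then Txn1 at 565 ± 22.6 and 477 ± 33.0, and Gpx1 at 368 ± 52.4 and 309 ± 24.2. Levels per kilobase of Gpx4 (231 ± 20.5 in IL-10/Fc, 225 ± 26.6 in PBS), Prdx2 (191 ± 30.7 and 210.5 ± 22.4) and Prdx5 (189 ± 22.8 and 147 ± 14.9) overlapped between neighbours in this order. Over all 6 libraries Prdx1 and Sod1 overlapped, since Sod1 reached 988 in PBS replicate 1 and Prdx1 had at least 902. Sod2 stood far lower per kilobase, at 26.8 ± 2.79 in IL-10/Fc and 27.7 ± 3.40 in PBS. Its principal transcript has 5861 bases, against 641 for Sod1, and by counts the ratio of Sod1 to Sod2 averaged 2.70 in IL-10/Fc. Lancl1 had 9.78 ± 0.866 CPM per kilobase in IL-10/Fc and 22.0 ± 2.40 in PBS, and Txnrd1 had 5.68 ± 1.28 and 3.98 ± 0.330. The enzyme that recharges thioredoxin was thus the rarest transcript of the set, and its substrate Txn1 among the 3 most abundant. With the length of all annotated exons in place of the principal transcript, Txn1 led at 565 CPM per kilobase in IL-10/Fc and 477 in PBS, ahead of Prdx1 at 382 and 286. Sod1 then stood at 105.5 in IL-10/Fc and 131.7 in PBS, below Gpx1 at 274 and 229.8. In IL-10/Fc it also lay below Gpx4 (128.7) and Prdx5 (111.4), so the order depends on the length used. Fewer cells of a type and less RNA per cell cannot be told apart in these bulk samples.

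**Figure D1:**
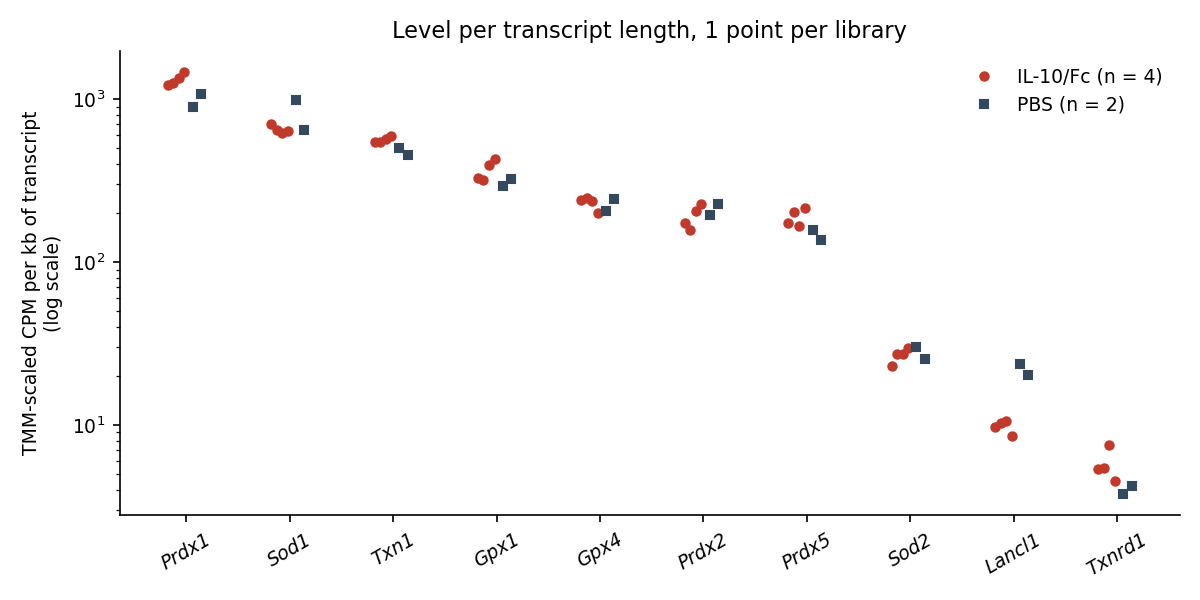
TMM-scaled CPM per kilobase of the principal transcript, on a log axis, for the 10 genes. Each point is 1 library, IL-10/Fc (circles, n = 4) left of PBS (squares, n = 2). By the mean of each group Prdx1 lies highest and Txnrd1 lowest, and Lancl1 is the gene whose groups stand farthest apart.

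The comparison of IL-10/Fc with PBS asked which transcripts differed between the 2 groups of sorted cells. Lancl1 had a log2 fold change of -1.17, and the other 9 genes lay between -0.32 and 0.51. All 10 passed the count filter. By TMM-scaled CPM the 4 IL-10/Fc and 2 PBS libraries did not overlap for 5 of the 10, with Prdx1, Prdx5, Txn1 and Txnrd1 higher in IL-10/Fc and Lancl1 lower, where 23.6% of all 15477 tested genes did not overlap, 12.1% as higher and 11.5% as lower. By plain CPM this held for 3 of the 10, Prdx1 (higher), Sod1 (lower) and Lancl1 (lower), with a background of 27.1%. The quasi-likelihood test of edgeR, Benjamini-Hochberg adjusted over all genes, called 0 of the 10, and 0.00646% of all genes. At an unadjusted p under 0.05 there were 4, with a background of 12.7%. Limma-voom called 0 of the 10, and 1 gene over the whole table. DESeq2 called 1 of the 10, Lancl1 (background 4.88%). The authors' deposited table called 1 of the 10, Lancl1, as lower, and 5.30% of its genes, 3.57% as higher and 1.72% as lower. Nothing is read from these counts, since the set was chosen with the contrast known. The median log2 fold change was 0.14 over the 10 genes and -0.01 over all genes tested.

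Among the peroxiredoxins, Prdx1 lay higher in every IL-10/Fc library, Prdx5 did so under TMM scaling, and Prdx2 did not follow. Prdx1 (ENSMUSG00000028691, chromosome 4, 116685544 to 116700822), a cytosolic peroxiredoxin, had 1069, 1107, 1184 and 1292 CPM in IL-10/Fc replicates 1 to 4, against 791 and 948 CPM in PBS replicates 1 and 2. The groups did not overlap, and the log2 fold change was 0.42 (SE 0.12), a ratio of 1.34. It stayed at 0.25 with scaling by library size only, and between 0.29 and 0.56 without single libraries. Prdx2 (ENSMUSG00000005161, chromosome 8, 84969587 to 84974834), also cytosolic and best known from red blood cells, had 260, 237, 309 and 339 CPM in IL-10/Fc, against 292 and 339 CPM in PBS. The groups overlapped, with a log2 fold change of -0.14 (SE 0.17), which was -0.03 without PBS replicate 2, -0.25 without PBS replicate 1 and -0.34 with the replicate block.

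The count ratio of Prdx1 to Prdx2 within a library does not depend on scaling. It was 4.11, 4.67, 3.83 and 3.82 in IL-10/Fc, against 2.71 and 2.79 in PBS, without overlap. The mean was 4.11 ± 0.396 (SD, n = 4) in IL-10/Fc and 2.75 ± 0.0588 (SD, n = 2) in PBS. The pair was chosen after the values were seen. Prdx2 shares 173 exon bases with the oppositely transcribed Junb and 177 with Rnaseh2a, and Smart-Seq2 reads carry no strand. Junb averaged 125 CPM in IL-10/Fc and 181 CPM in PBS, and its part in the ratio was not tested.

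Prdx5 (ENSMUSG00000024953, chromosome 19, 6906697 to 6910106), found in mitochondria, peroxisomes and cytosol, had 219, 254, 209.5 and 270.1 CPM in IL-10/Fc, against 199 and 172 CPM in PBS. All 4 IL-10/Fc libraries lay above both PBS libraries, and the log2 fold change was 0.36 (SE 0.14). By library size alone the log2 fold change was 0.19 and the groups overlapped. Its annotated exons share 409 bases with the opposite gene Trmt112, which averaged 105 CPM in IL-10/Fc and 97.1 CPM in PBS.

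Txn1 showed the narrowest spread of the set in IL-10/Fc cells. Txn1 (ENSMUSG00000028367, chromosome 4, 57943373 to 57956411), the cytosolic thioredoxin, had 574, 576, 602 and 624 CPM in IL-10/Fc, against 526 and 477 CPM in PBS. The coefficient of variation was 4.00% in IL-10/Fc and 6.91% in PBS. The groups did not overlap, at a log2 fold change of 0.24 (SE 0.09). By library size alone it was 0.07, with overlap. Txn-ps1, a processed pseudogene of thioredoxin, was listed at 32.9 CPM or less, so reads of these copies may have been split.

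Txnrd1 (ENSMUSG00000020250, chromosome 10, 82859206 to 82897724), the cytosolic reductase whose selenocysteine codon is shown above, had 17.7, 18.0, 24.9 and 15.0 CPM in IL-10/Fc, against 12.5 and 14.0 CPM in PBS. IL-10/Fc replicate 3 stood highest and replicate 4 close to the PBS libraries. The log2 fold change was 0.51 (SE 0.26), the highest of the set and also the least precise. By library size alone the log2 fold change was 0.35 and the groups overlapped, which they did not under TMM scaling. The count ratio of Txn1 to Txnrd1 was 32.6 ± 7.17 (SD, n = 4) in IL-10/Fc and 38.1 ± 5.77 (SD, n = 2) in PBS, and overlapped.

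**Figure D2:**
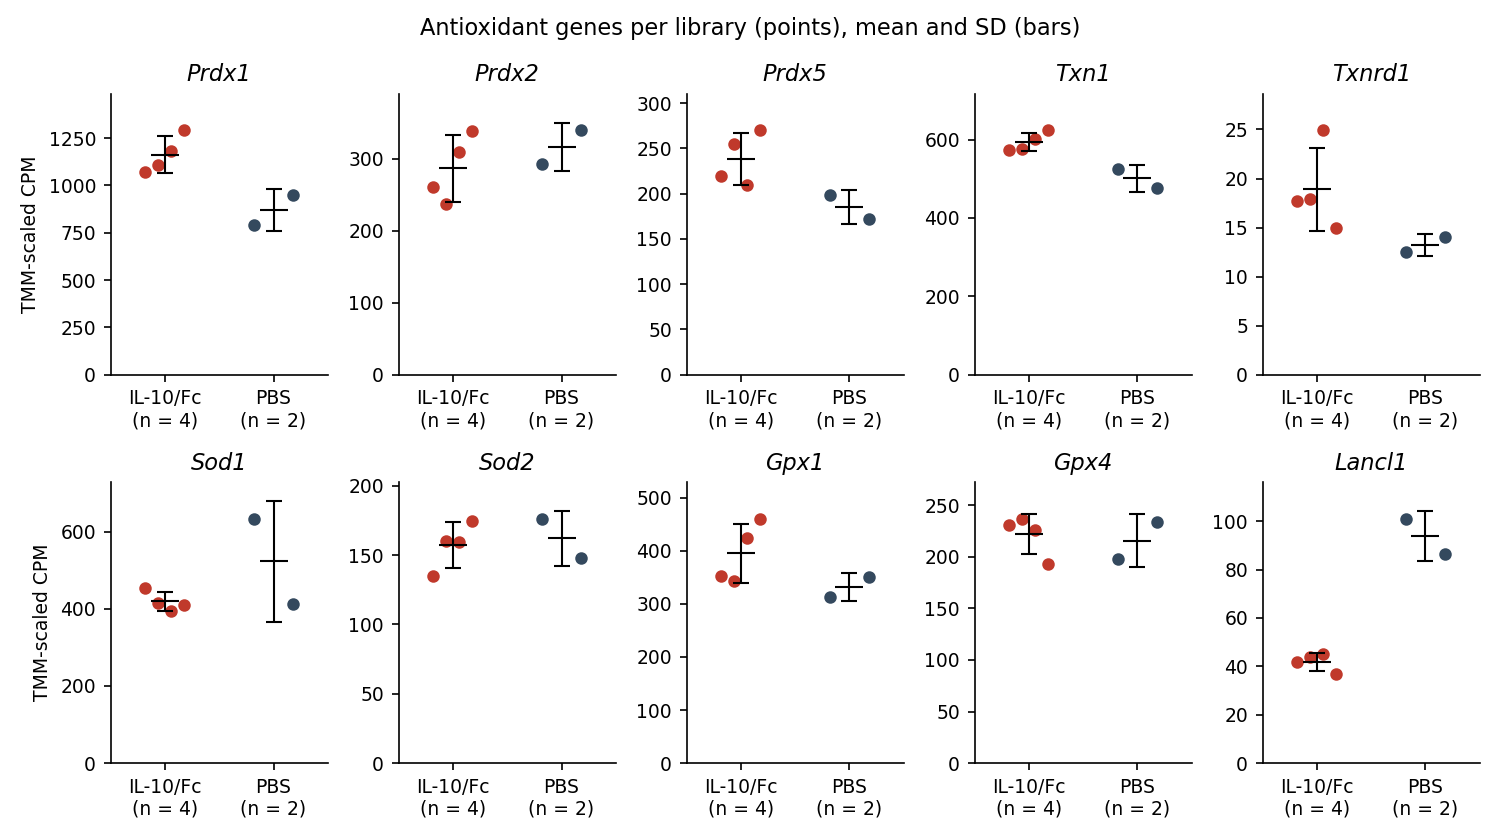
TMM-scaled CPM of each of the 10 genes per library, from 0, with IL-10/Fc (n = 4) left of PBS (n = 2) and the mean and SD as bars. Lancl1 shows 36.7 to 45.0 CPM in IL-10/Fc against 86.5 and 101 CPM in PBS, while Sod1, Sod2, Gpx1, Gpx4 and Prdx2 overlap between the groups.

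The superoxide dismutases did not separate by group under TMM scaling. Sod1 (ENSMUSG00000022982, chromosome 16, 90220742 to 90226322), the copper and zinc enzyme of the cytosol, had 455, 415, 395 and 410.4 CPM in IL-10/Fc, against 633 and 412 CPM in PBS. One library, PBS replicate 1, stood above the other 5, and PBS replicate 2 lay within the IL-10/Fc range. The log2 fold change of -0.32 (SE 0.17) was 0.02 without PBS replicate 1 and -0.60 without PBS replicate 2. By plain CPM Sod1 had 435, 397, 389 and 389.7 in IL-10/Fc, against 697 and 438.5 in PBS, and the groups then did not overlap. PBS replicate 1 is also the library with the lower T cell marker sum, though Cd3d, Pdcd1 and Havcr2 lay higher in it than in PBS replicate 2. The part of cell content in the Sod1 value was not tested.

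Sod2 (ENSMUSG00000006818, chromosome 17, 13007839 to 13018119), the manganese enzyme of the mitochondrial matrix, had 135, 160.4, 159.5 and 174 CPM in IL-10/Fc, against 176 and 148 CPM in PBS. Its log2 fold change was -0.04 (SE 0.14), and the sign changed without IL-10/Fc replicate 1 (0.02) or PBS replicate 1 (0.09). The count ratio of Sod1 to Sod2 was 2.70 ± 0.458 (SD, n = 4) in IL-10/Fc and 3.19 ± 0.572 (SD, n = 2) in PBS, and overlapped.

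Both glutathione peroxidases overlapped between the groups. Gpx1 (ENSMUSG00000063856, chromosome 9, 108338903 to 108340343), which reduces hydrogen peroxide in the cytosol and mitochondria, had 352, 344, 423 and 460.2 CPM in IL-10/Fc, against 313 and 349.5 CPM in PBS. IL-10/Fc replicates 3 and 4 lay well above both PBS libraries, replicate 1 just above them and replicate 2 between them. The log2 fold change was 0.25 (SE 0.15). It was 0.08 by library size alone and 0.07 with the replicate block. IL-10/Fc replicates 3 and 4 had the highest macrophage marker sums, 1016 and 1034 CPM, and also the highest Prdx1 and, within IL-10/Fc, the highest Prdx2. The part of macrophage RNA in these values was not tested.

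Gpx4 (ENSMUSG00000075706, chromosome 10, 80047166 to 80056439), which reduces lipid peroxides and restrains ferroptosis, had 231, 237, 226 and 193 CPM in IL-10/Fc, against 197 and 233 CPM in PBS. The log2 fold change was 0.04 (SE 0.13), and it was -0.13 with scaling by library size only and -0.08 without PBS replicate 1. The count ratio of Gpx1 to Gpx4 was 1.53, 1.45, 1.87 and 2.38 in IL-10/Fc, against 1.58 and 1.50 in PBS. It rested in replicate 4 on a high Gpx1 together with the lowest Gpx4 of the 6 libraries.

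Lancl1 was the one gene of the set that differed by more than 2-fold. Lancl1 (ENSMUSG00000026000, chromosome 1, 67000517 to 67038872) encodes a glutathione-binding protein related to bacterial lantibiotic cyclases, known in mouse neurons for protection against oxidative stress. It had 41.6, 43.9, 45.0 and 36.7 CPM in IL-10/Fc, against 101 and 86.5 CPM in PBS. The highest IL-10/Fc library lay well below the lowest PBS library. The mean was 41.8 ± 3.70 CPM in the 4 IL-10/Fc libraries and 93.8 ± 10.2 CPM in the 2 PBS libraries (mean ± SD), a log2 fold change of -1.17 (SE 0.14) and a ratio of 0.446. Across all 15 settings tried it lay between -1.34 and -1.05. The sums of the listed B cell markers and of the listed fibroblast and endothelial markers also lay lower in IL-10/Fc. By plain CPM this held for the single markers Ighm and Pecam1, while Cd79b lay higher and Igkc and Col1a1 overlapped. The part of such cells in the Lancl1 value was not tested.

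The count ratio of Prdx1 to Lancl1 was 25.7, 25.2, 26.3 and 35.3 in IL-10/Fc, against 7.83 and 11.0 in PBS. This pair, too, was chosen with the values known, so its separation adds nothing to the single genes. The family members Lancl2 and Lancl3 were scarce, Lancl2 at 1.64, 11.5, 9.26 and 12.0 CPM in IL-10/Fc, against 13.8 and 10.2 CPM in PBS. The genes with a mean of at least 20 CPM whose centred log2 profile over the 6 libraries lay nearest to that of Lancl1 were Rgs16, Abcf3 and Fbxo4. Their root mean square differences were 0.0969, 0.126 and 0.128, among 4785 genes. Rgs16 had 34.3, 33.2, 35.4 and 32.0 CPM in IL-10/Fc, against 83.5 and 61.2 CPM in PBS.

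**Figure D3:**
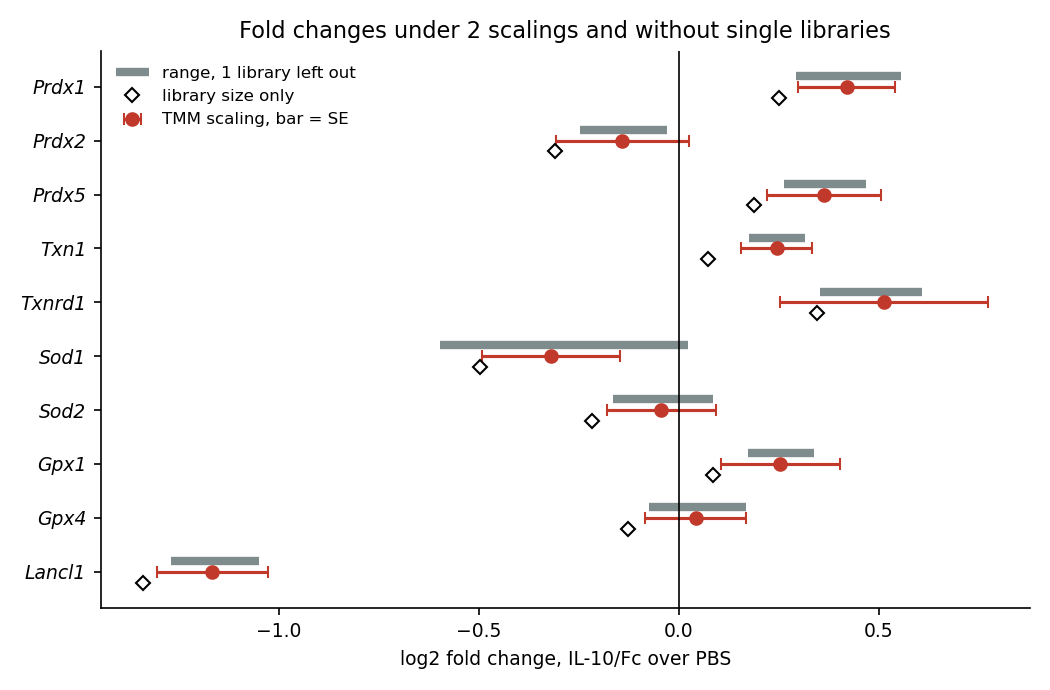
The log2 fold change of IL-10/Fc over PBS for the 10 genes: TMM scaling with its SE (circles), scaling by library size only (diamonds), and the range when 1 library is left out (grey bars). Lancl1 lies below -1 in each, Sod1 spans -0.60 to 0.02, and library size scaling lies to the left of TMM scaling for every gene.

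The other genes of these pathways were taken from 4 lists, of which 62 of 67 genes were listed and tested. By edgeR's quasi-likelihood test adjusted over all genes, 0 of the 62 passed in either direction. At an unadjusted p under 0.05 there were 13, 6 higher and 7 lower, a share to be set beside 12.7% over all genes. Limma-voom called 0 of the 62, and 1 gene over the whole table. DESeq2 called 2 genes of the glutathione synthesis list and 3 of the list of glutathione peroxidases and transferases (background 4.88%). In the authors' deposited table there were 5 calls among the 62, Glrx, Gstt1 and Gstm5 as higher and Gsto1 and Chac2 as lower, where 5.30% of its genes were.

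Of the other peroxiredoxin, thioredoxin and superoxide genes, 15 were tested, 6 above and 9 below a log2 fold change of 0, with a median of -0.04 (0.11 without PBS replicate 2 and -0.20 by library size alone). The 4 with the smallest p all lay lower. Tmx1, a thioredoxin-like protein of the endoplasmic reticulum membrane, had 108, 99.8, 131 and 125 CPM in IL-10/Fc, against 146 and 166 CPM in PBS. Every IL-10/Fc library lay below both PBS libraries, with a log2 fold change of -0.42 (SE 0.14; edgeR adjusted p = 0.328). Msrb2, a mitochondrial methionine sulfoxide reductase, stood at 1.05 ± 0.504 CPM in the 4 IL-10/Fc libraries and 2.96 ± 1.19 CPM in the 2 PBS libraries (mean ± SD).

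The endoplasmic reticulum peroxiredoxin Prdx4 had 16.5, 5.23, 25.5 and 21.1 CPM in IL-10/Fc, against 63.6 and 21.3 CPM in PBS, so its distance between the means rested on PBS replicate 1. Without that library its log2 fold change was -0.32, against -1.31 (SE 0.65) with all libraries. Msra, another methionine sulfoxide reductase, was 26.4 ± 8.80 CPM in the 4 IL-10/Fc libraries and 40.6 ± 19.5 CPM in the 2 PBS libraries (mean ± SD), and its log2 fold change of -0.62 was -0.02 without PBS replicate 1. Txnrd2, the mitochondrial thioredoxin reductase, had 16.3, 9.14, 13.9 and 7.50 CPM in IL-10/Fc, against 10.2 and 12.3 CPM in PBS.

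The glutathione synthesis and recycling list had 14 tested genes, 9 above and 5 below 0, with a median of 0.15 (-0.03 by library size alone). Glutaredoxin (Glrx), which removes glutathione from protein thiols, lay higher, at 622, 596, 514 and 625 CPM in IL-10/Fc, against 144 and 399 CPM in PBS. The groups did not overlap, and the PBS libraries lay far apart. Its log2 fold change was 1.12 (SE 0.39, adjusted p = 0.336 by edgeR), and it was 0.56 without PBS replicate 1. Leaving out PBS replicate 2 gave 2.03, and edgeR then called Glrx. Glrx5, a mitochondrial glutaredoxin of iron-sulfur cluster assembly, lay the other way, at 91.2, 94.7, 89.0 and 111 CPM in IL-10/Fc, against 136 and 128 CPM in PBS (log2 fold change -0.45, SE 0.13, adjusted p = 0.268 by edgeR).

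Chac2, which degrades glutathione, had 3.82, 6.10, 6.20 and 4.28 CPM in IL-10/Fc, against 18.8 and 9.05 CPM in PBS. The log2 fold change of -1.45 (SE 0.38) was -0.83 without PBS replicate 1. Ggct, a cyclotransferase of the glutathione cycle, stood at 52.7 ± 13.9 CPM in the 4 IL-10/Fc libraries and 35.0 ± 4.20 CPM in the 2 PBS libraries (mean ± SD). The subunits of the rate-limiting synthesis enzyme overlapped between the groups, Gclc at 7.55 ± 2.72 CPM in IL-10/Fc and 7.45 ± 0.785 CPM in PBS, and Gclm at 23.0 ± 8.79 and 21.0 ± 0.579 CPM.

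The list of glutathione peroxidases and transferases had 20 tested genes, 9 above and 11 below 0, with a median of -0.06. Its sign turned without IL-10/Fc replicate 1 (0.07), without IL-10/Fc replicate 4 (0.04) and without PBS replicate 1 (0.06), and it was -0.22 by library size alone. Gsto1, an omega-class transferase that reduces dehydroascorbate, had 80.8, 112, 88.4 and 86.7 CPM in IL-10/Fc, against 188 and 274 CPM in PBS. The groups did not overlap, and the log2 fold change was -1.33 (SE 0.19; edgeR adjusted p = 0.148). It was called lower with the filter of at least 20 CPM in 2 libraries, where 60 of 5974 genes were called. Gstt1, a theta-class transferase, lay higher at 68.6, 15.2, 67.0 and 37.1 CPM in IL-10/Fc, against 8.39 and 3.27 CPM in PBS (log2 fold change 3.01, SE 0.77, adjusted p = 0.237 by edgeR). The IL-10/Fc libraries differed widely among themselves for this gene.

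Gstp3 stood at 86.7 ± 14.1 CPM in the 4 IL-10/Fc libraries and 57.7 ± 9.24 CPM in the 2 PBS libraries (mean ± SD). Any sharing of reads with the related genes Gstp1 and Gstp2 was not tested. Mgst3, a microsomal transferase, stood at 16.8 ± 4.11 CPM in IL-10/Fc and 28.6 ± 7.19 CPM in PBS. Gstm5, which the authors' deposited table called, rested mainly on IL-10/Fc replicate 1, at 83.1, 15.4, 6.59 and 9.09 CPM in IL-10/Fc, against 2.48 and 4.93 CPM in PBS.

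The NRF2 list had 13 tested genes, 6 above and 7 below 0, with a median of -0.11. It was -0.27 by library size alone, 0.01 with limma-voom and 0.04 at the 20 CPM filter. Nfe2l2, which encodes NRF2, overlapped between the groups at 47.9 ± 9.34 CPM in the 4 IL-10/Fc libraries and 45.7 ± 20.8 CPM in the 2 PBS libraries (mean ± SD). The ferritin chains, which store iron, both lay higher without overlap under TMM scaling, and by plain CPM the groups overlapped for both. Ftl1 had 475, 523, 485 and 574 CPM in IL-10/Fc, against 422 and 354 CPM in PBS (log2 fold change 0.41, SE 0.12, adjusted p = 0.285 by edgeR), and 0.23 by library size alone. Fth1 had 3433, 3708, 3300 and 3603 CPM in IL-10/Fc, against 2655 and 3107 CPM in PBS (log2 fold change 0.29, SE 0.10, adjusted p = 0.328 by edgeR), and 0.12 with scaling by library size only.

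Sqstm1, an autophagy receptor that binds the NRF2 inhibitor KEAP1, lay lower at 324, 348, 291 and 318 CPM in IL-10/Fc, against 535 and 365 CPM in PBS. Its log2 fold change of -0.49 (SE 0.16) was -0.19 without PBS replicate 1. The quinone reductase Nqo1, a classical NRF2 target, was listed at 1.11, 0.0698, 0.0720 and 1.20 CPM in IL-10/Fc and at 0 in both PBS libraries, where 3 counts equal 0.0855 to 0.108 CPM on the same TMM scale.

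**Figure D4:**
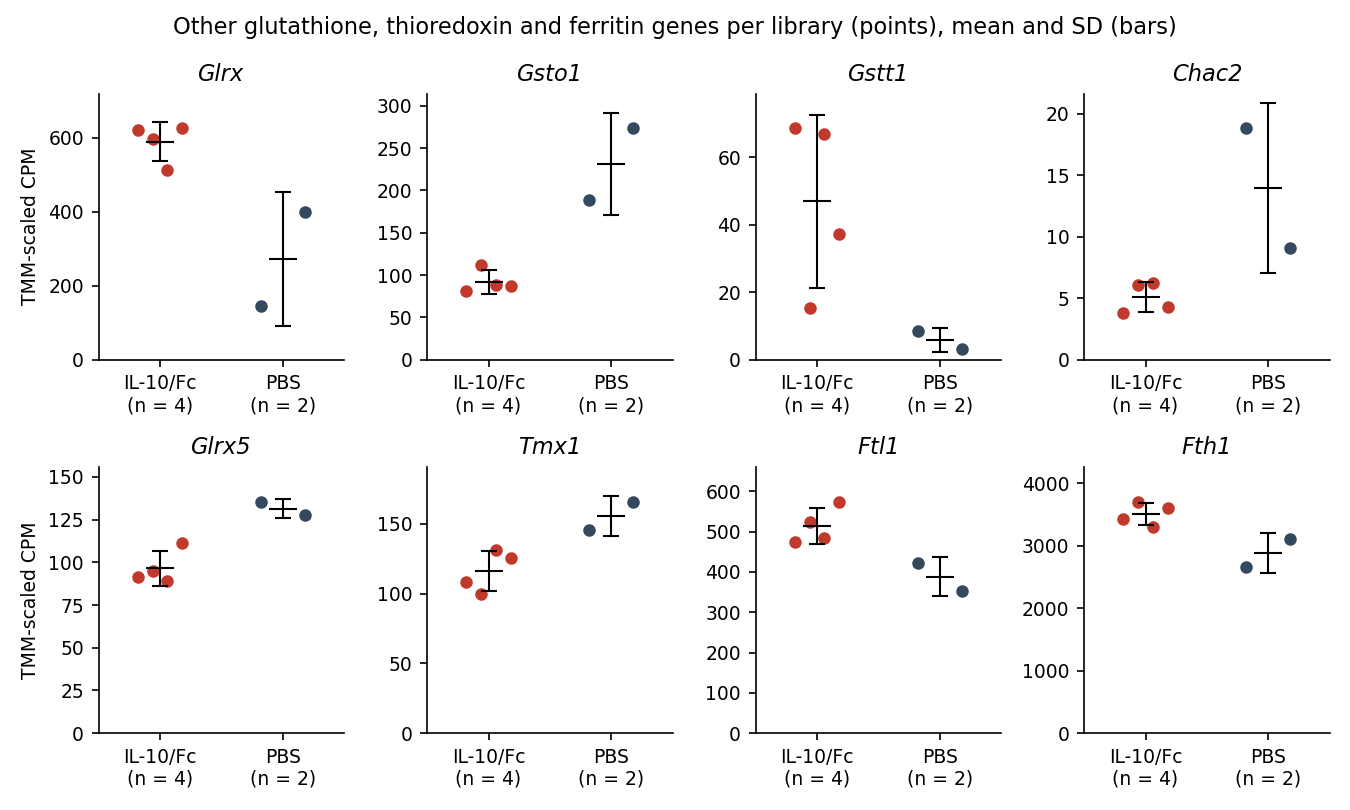
TMM-scaled CPM per library, from 0, of 8 other genes picked from the lists after their values were seen, IL-10/Fc (n = 4) left of PBS (n = 2), with the mean and SD as bars. On this scale Glrx, Gstt1, Ftl1 and Fth1 lie higher in every IL-10/Fc library, and Gsto1, Chac2, Glrx5 and Tmx1 lower.

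**Figure D5:**
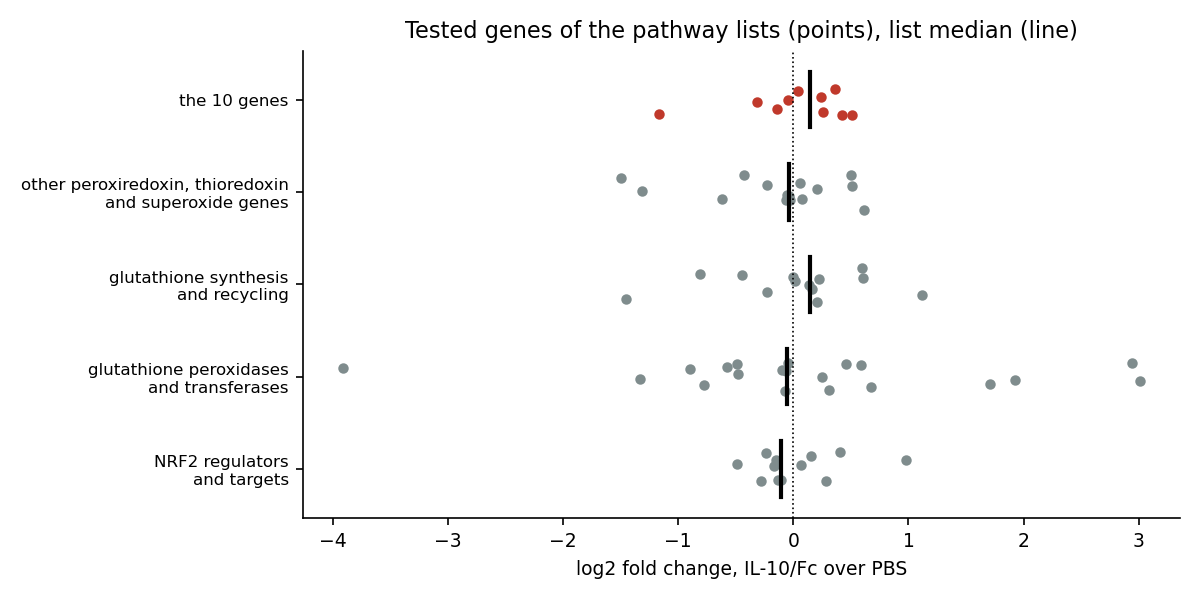
The log2 fold change of IL-10/Fc over PBS for the 10 genes (top row) and the 4 pathway lists, 1 point per tested gene and a line at the list median. Chac1 and Nqo1, at 0 in both PBS libraries, are not drawn as points; the medians of the lists lie between -0.11 and 0.15.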

How the data were processed

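Libraries were made with Smart-Seq2, per the labels' protocols, which copies whole transcripts, keeps no strand and has no molecular identifiers. Gene counts as whole numbers were deposited, in 1 file per library and in 1 table of the series. That deposited table also holds the authors' log2 fold changes with standard errors, p-values and adjusted p-values, the mean normalized count over all libraries (held as a signal) and a Wald statistic (a score), per the file headers. Per the submitters' processing notes, the tools were TopHat2 2.1.1 with Bowtie2 2.2.9, Cufflinks 2.2.1 with Cuffdiff, Trimmomatic and DESeq2, on GRCm38 (mm10). For the read counter, a name was not given in the sources used. Columns number the PBS libraries 2 and 3, and the titles, which number them 1 and 2, were followed through each sample's own file.

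Genes were kept with filterByExpr (15477 of 15898), scaled by TMM and tested with edgeR 4.0.16 (quasi-likelihood, robust, two-sided), with treatment as the sole term and Benjamini-Hochberg adjustment at 0.05. The standard error is the log2 fold change over the root of F. The test was tested on simulated data. DESeq2 1.42.0 and limma 3.58.1 were alternatives. The p-values rest on the spread among these samples alone, and that spread may be technical. The floor of 3 counts covers counting error only. Libraries of 1 group differed beyond sampling noise (chi-square over degrees of freedom 43.6 to 126) and were each counted as 1 replicate.

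The 10 genes and the lists were chosen with earlier results of these data known. Named are the 10, the 4 smallest p of each list, the 3 nearest profiles (log2 of CPM plus 1) of Lancl1, and others named as such for their role or after their values were seen. Sequences come from GENCODE vM21 and RefSeq. The nearest profiles of the most abundant gene are not reported here.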

Additional observations from a re-analysis of the deposited data

How the results depend on the processing

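The number of genes called over the whole table, 1 by edgeR, was 741 with the DESeq2 Wald test, 60 with at least 20 CPM in 2 libraries, and 0 with scaling by library size only, without the robust option and with the replicate block. It ranged from 0 to 16 without single libraries, with 16 without PBS replicate 2. Of the 10 genes, 0 were called, against 1 (Lancl1) with the DESeq2 Wald test and 1 (Lancl1) with at least 20 CPM in 2 libraries, a filter that tests fewer genes and calls 60 of 5974. The glutathione synthesis list had 2 calls with DESeq2, against 0, and ranged from 0 to 1 without single libraries. The list of glutathione peroxidases and transferases had 3 calls with DESeq2, against 0, and 1 at the 20 CPM filter. The other 2 lists had 0 calls in each of the 15 settings.

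Of the 10 genes, 7 kept 1 sign in each setting in which they were fitted (Txnrd1 was not in the 20 CPM fit), and Sod1, Sod2 and Gpx4 did not, as given with their values. The 16 genes with the 4 smallest p of each list kept 1 sign where they were fitted. Nqo1 was not fitted at the 20 CPM filter or without IL-10/Fc replicate 1 or 4. These 16 were picked by p in the same libraries, which favours a stable sign, so nothing is read from it. The further genes named were not run. The median over the 10 genes was 0.14, -0.03 with scaling by library size only and 0.02 at the 20 CPM filter, where Txnrd1 was not tested. Each of the 4 list medians changed sign in at least 1 setting, as given with the lists. The labels do not say whether replicate numbers pair the samples. Deviations from the group means correlated at 0.101 for number 1 and 0.0751 for number 2 across 5452 genes. These values cannot decide it, since the deviations of 2 PBS libraries mirror each other. With the replicate block the pathway lists and the 10 genes had 0 calls, and the group difference rests there on replicates 1 and 2 of each group. Without a PBS library, the spread of the remaining one was taken to equal that of the IL-10/Fc group.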

Other observations

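Of the antioxidant genes outside the 10, those given here were chosen for their role after their values were seen. Prdx6, a peroxiredoxin that also acts on phospholipids, averaged 821 ± 53.3 CPM (SD) over 4 IL-10/Fc libraries and 851 ± 150.5 CPM over 2 PBS libraries. The mitochondrial peroxiredoxin Prdx3 averaged 41.6 ± 0.793 CPM in IL-10/Fc and 42.6 ± 13.2 CPM in PBS, and its partner thioredoxin Txn2 309 ± 12.6 and 268 ± 55.4 CPM. Catalase (Cat), which breaks down hydrogen peroxide in peroxisomes, averaged 82.2 ± 19.5 CPM in IL-10/Fc and 84.1 ± 8.97 CPM in PBS. Txnip, which binds and inhibits thioredoxin, averaged 118 ± 43.7 CPM in IL-10/Fc and 83.1 ± 15.7 CPM in PBS. Glutathione reductase (Gsr), which regenerates glutathione, averaged 79.2 ± 7.72 CPM in IL-10/Fc and 68.5 ± 0.219 CPM in PBS, with a log2 fold change of 0.21 (SE 0.13, edgeR adjusted p = 0.564). Its groups did not overlap under TMM scaling and overlapped by plain CPM, at 68.5, 70.5, 82.1 and 83.3 in IL-10/Fc and 75.2 and 73.0 in PBS.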
